A study of Mus musculus with 14 samples.

Results

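ATP-binding cassette (ABC) transporters were followed across 8 groups of sorted mouse mammary cells. They were taken as all genes whose name on the array is Abc, a subfamily letter from a to g, a number and at most a closing a or b. This gave 49 genes with 93 probes. Of these, 44 genes with 76 probes passed the filter among 23647 genes tested: all arrays of 1 or more of the 6 groups with replicates had to show the probe well above background in the sample channel. Subfamily A had 15 genes, of which 13 were tested. Subfamily B had 10 with 9 tested, C had 10 with 8 tested, D had 4, E had 1, F had 3 and G had 6, all of which were tested in D to G. The genes not tested were Abca4, Abca15, Abcb5, Abcc10 and Abcc12, whose best probe was well above background on 1, 0, 0, 0 and 3 of the 14 arrays.

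The RNA came from mammary glands of virgin and of pregnant mice, sorted by flow cytometry. Wild-type FVB/N-J mice gave 3 populations per condition with 2 arrays each: P4 (labelled CD24+CD29hi and enriched for mammary stem cells, MaSC), P5 (labelled with the same CD24+CD29hi gate and enriched for luminal progenitors) and P6 (labelled CD24lo, differentiated mammary epithelial cells). Virgin mice of the transgenic line FVB-Luciferase (L2G85) gave lineage-negative GFPhi cells, labelled enriched for MaSC, and GFPlo cells, labelled depleted of them, with 1 array each. The stage of pregnancy, the age of the mice and the promoter behind GFP are not given in the sources used here. The labels also do not say whether the replicates came from separate mice, so p-values measure the spread between these arrays, which may be technical.

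ABC proteins use ATP hydrolysis to move substrates across membranes, and subfamilies A, B, C, D and G hold lipid and sterol exporters, multidrug pumps, organelle transporters and channel regulators. Members of E and F keep the ATP-binding parts without a membrane domain and act in translation. In the mammary gland, Abcg2 (breast cancer resistance protein) is known for passing riboflavin and drugs into milk and as the pump behind dye-excluding side population cells.

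Abcg2 was measured by a pair of probes that lie in different exons, and both are shown because they gave the same pattern. On the + strand of mouse genome build mm7, the probe used for the values below aligns over chr6:58658701-58660383 and the other over chr6:58646466-58651396, and each span is longer than the probe itself, so each crosses an intron.
Abcg2, probe used: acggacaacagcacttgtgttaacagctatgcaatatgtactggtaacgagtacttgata
Abcg2, other probe: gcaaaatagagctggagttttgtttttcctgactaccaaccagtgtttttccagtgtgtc
Abcg5 and Abcg8 lie head to head on chromosome 17, and the stretch between their starts is shown because these neighbours differed in the data. It spans 109 bases at chr17:84683012-84683120 of build GRCm38.p6 in RefSeq, written along the + strand. Capitals mark the 2 copies of TTATCT, the reverse complement of AGATAA, a sequence that GATA factors can bind.
Abcg5 to Abcg8: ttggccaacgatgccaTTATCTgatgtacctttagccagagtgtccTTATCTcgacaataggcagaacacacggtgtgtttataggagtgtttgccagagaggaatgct
AGATAA was searched on both strands of RefSeq windows from 250 bases before to 50 after each gene start, and it was in 11.2% of 32817 windows of all genes. It was in 5 of the 38 windows of the 32 members that had one, namely those of Abca14, Abca16, Abcf2, Abcg5 and Abcg8, and the overlapping windows of Abcg5 and Abcg8 held 3 copies each. TTCNNNGAA, the STAT-type palindrome, was in 8.29% of windows and in 2 of the members' windows, those of Abcc4 and Abcc5. AGGTCA followed by 4 bases of any kind and AGGTCA again, a repeat that the sterol receptor LXR can bind, searched on both strands, was in 0.0152% of windows and in none of the members' 38. A match describes letters in the window only.

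Each value is a log2 ratio of the sorted cells (Cy5) over a reference RNA mixed from 11 mouse cell lines (Cy3), after background correction and normalization within the array. The median Cy5 intensity of an array lay between 70.9 and 196 against a local background between 32 and 34.5, with 66.4% to 86.7% of its probes well above background. The pregnant replicate 1 arrays shared a scan of their own (scan 3), without the scanner's extended dynamic range and with 111 to 236 saturated spots against 0 to 15 elsewhere, though no member's probe was saturated on any array. A scan here means the arrays that share a scan date. The virgin and pregnant replicate 2 arrays shared scan 2, so the replicate 2 pregnancy difference was also taken within 1 scan. Pregnant P5 and P6 replicate 2 were on slide 4, and the other replicate 2 arrays were on slide 2. Within scan 2 the pregnancy differences of P5 and P6 therefore still cross slides.

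Marker lists set the populations apart, with values as the mean log2 ratio of a list on an array. The 13 basal markers were at 4.50 to 4.65 in virgin P4, 3.52 to 5.32 in pregnant P4 and 4.58 in GFPhi, against -0.03 to 1.70 in the other wild-type groups and 1.36 in GFPlo. The 18 luminal markers were at 4.24 to 4.30 in virgin P5 but 1.33 to 1.96 in pregnant P5, where 14 of 18 were lower than in virgin P5. P6 went against its label in the 12 fibroblast markers. They were at 4.78 to 4.83 in virgin P6, 3.99 to 5.12 in pregnant P6 and 4.09 in GFPlo, against at most 1.19 elsewhere. The luminal marker mean was 0.92 to 1.52 in virgin and -0.67 to -0.02 in pregnant P6, with its genes far apart. Krt8 averaged -1.08 and -3.42 in virgin and pregnant P6, but Aldh1a3 averaged 6.46 and 5.40 and Esr1 3.71 and 3.09. Milk genes were measured in all groups and on all arrays, at 3.40 to 5.69 in virgin and 4.53 to 9.01 in pregnant glands.

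Across the family, 29 of the 44 tested members passed an adjusted p of 0.05 in at least 1 comparison (limma, Benjamini-Hochberg over all genes tested): 8 of 13 in subfamily A, 6 of 9 in B, 6 of 8 in C, 2 of 4 in D, the only member of E, 2 of 3 in F and 4 of 6 in G. The range of a member's 6 wild-type group means ran from 0.09 to 5.84, with Abcg2 at the top. The share of all genes called in at least 1 comparison is not given here, so the 29 of 44 is not set against it. Pregnant P5 minus P6 alone called 13.8% of all genes higher and 13.2% lower. The members were chosen by name, and how their counts in each comparison stand against all genes is given as a description without a test. Each call was also tried in 24 alternative fits, which change 1 processing step, add a block or leave out 1 array or 1 scan. Counts of members in an alternative fit are given without the share of all genes called in that fit. They are not read as a result about the members.

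Between the virgin populations, P5 set itself apart from P6. In virgin P4 minus P5, 6 members were higher and 2 lower, which is 13.6% and 4.55% of the 44 against 6.56% and 4.8% of all genes. In virgin P4 minus P6, 1 was higher and 4 lower (2.27% and 9.09% against 4.88% and 5.44%). In virgin P5 minus P6, 2 were higher and 11 lower (4.55% and 25% against 7.32% and 8.82%), so lower calls were more frequent among members than among all genes. The replicate number as a block within each condition, which stands for the shared scan, gave 17, 15 and 25 calls for these in place of 8, 5 and 13. The share of all genes called with this block is not given here, so the rise is not set against it. The split moved with the scaling: median centring gave 2 higher and 5 lower for P4 minus P5 and 4 higher and 3 lower for P5 minus P6, and the scanner's own log ratio gave 3 and 3, and 3 and 8.

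Between the pregnant populations more members were called, as were more genes. Pregnant P4 minus P5 had 5 higher and 9 lower members (11.4% and 20.5% against 11.7% and 10.9% of all genes). Pregnant P4 minus P6 had 4 higher and 7 lower (9.09% and 15.9% against 6.2% and 5.87%). Pregnant P5 minus P6 had 10 higher and 11 lower (22.7% and 25% against 13.8% and 13.2%). The block gave 26 calls in place of 14 for P4 minus P5. Median centring gave 4 higher and 2 lower, 0 and 4, and 3 and 8 in these comparisons, and the scanner's log ratio gave 8 and 9 for P4 minus P5.

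Pregnant minus virgin, P5 held most of the members' calls, as it did those of all genes. In P5, 8 members were higher and 7 lower (18.2% and 15.9% against 10.7% and 10.7% of all genes). In P4, 2 were higher and 1 lower (4.55% and 2.27% against 1.49% and 2.25%), or 3 and 5 with the replicate block. In P6, limma called 0 members, against 0.0465% of genes higher and 0.14% lower. There 1 member, Abcc8, was under an unadjusted p of 0.05, and the block called 1 member. Median centring left 2 higher and 4 lower in P5, and 0 and 1 in P4. Over all members the median difference was 0.04 in P5, -0.07 in P4 and -0.03 in P6, against 0.04, -0.03 and -0.01 over all genes.

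**Figure D1:**
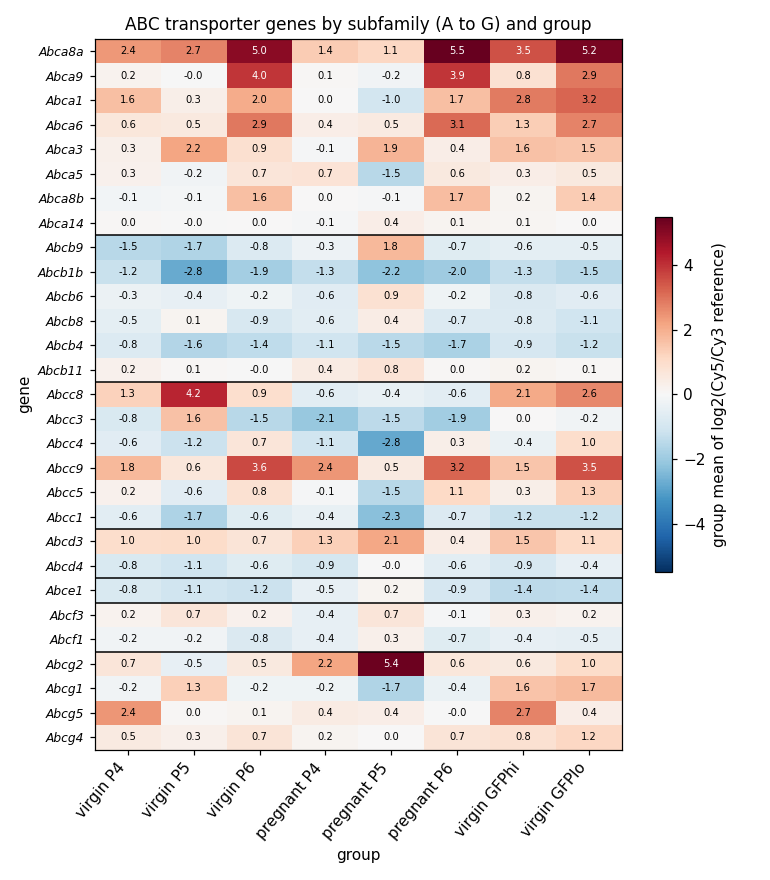
Heat map of the mean log2 ratio (Cy5 over Cy3) of each of the 29 members called in at least 1 comparison (vertical axis, by subfamily) in the 8 groups (horizontal axis; 2 arrays a group, 1 each for GFPhi and GFPlo). Abcg2 reaches 5.38 in pregnant P5, its highest group, and the chromosome 11 genes Abca6, Abca8a, Abca8b and Abca9 are higher in P6 than in P4 and P5 of both conditions.

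In subfamily G, Abcg2 was higher in pregnant P5 than in any other group and low in virgin P5. Its log2 ratios in virgin glands were 0.80 and 0.53 in P4, -0.46 and -0.46 in P5 and 0.50 and 0.58 in P6. In pregnant glands they were 1.97 and 2.37 in P4, 5.48 and 5.27 in P5 and 0.68 and 0.57 in P6, and the GFPhi and GFPlo arrays gave 0.55 and 1.01. Pregnant P5 lay above all other arrays, pregnant P4 came next without overlap with the rest, and virgin P5 lay below all the others. Pregnant minus virgin, Abcg2 in P5 rose by 5.84 ± 0.17 (SE, adjusted p = 2.64e-06), which is 57.1-fold, with n = 2 arrays a group. In P4 it rose by 1.51 ± 0.17 (SE, adjusted p = 0.00401), or 2.84-fold, a call lost with median centring (adjusted p over 24 alternative fits from 0.00182 to 0.188). In P6 the difference was 0.08 ± 0.17 (SE, adjusted p = 0.974). These 3 pregnancy differences were unequal by the limma F test (F = 312, adjusted p = 0.000172), a call that stood in all the fits.

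Within scan 2 the pregnancy difference of Abcg2 was 5.73 in P5, 1.84 in P4 and -0.01 in P6, from 1 array a group. The order of the populations turned over between conditions. In virgin glands Abcg2 was lower in P5 than in P4, by 1.12 ± 0.17 (SE, adjusted p = 0.00339) for P4 minus P5, and lower than in P6, by -1.0 ± 0.17 (SE, adjusted p = 0.00375) for P5 minus P6. In pregnant glands it was 9.22-fold higher in P5 than in P4 (-3.21 ± 0.17 (SE, adjusted p = 2.13e-05) for P4 minus P5) and 26.9-fold higher in P5 than in P6 (4.75 ± 0.17 (SE, adjusted p = 1.74e-06) for P5 minus P6), and both calls stood in all 24 alternative fits. Pregnant P4 was above pregnant P6 by 1.55 ± 0.17 (SE, adjusted p = 0.000521). The virgin calls and that of pregnant P4 minus P6 were lost with median centring (adjusted p over the fits up to 0.791), and virgin P5 minus P6 also with the local backgrounds as given. The other Abcg2 probe had group means of 4.94 in pregnant P5, 1.86 in pregnant P4 and -0.65 in virgin P5, and was well above background on all 14 arrays. Fewer cells of a type and less RNA per cell cannot be told apart in such bulk samples. The mean of the 7 milk genes was 5.76 and 9.01 in pregnant P5 and 5.69 and 5.41 in virgin P5, and 1 of the 7 was called higher; their part in the result was not tested.

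By its only probe on the array, Abcg5 was high in virgin P4 and in GFPhi and near the reference elsewhere. Abcg5 pairs with Abcg8 to form a sterol exporter of liver and gut. Its log2 ratios in virgin glands were 2.35 and 2.47 in P4, 0.07 and 0.02 in P5 and 0.16 and 0.11 in P6. The pregnant arrays gave 0.51 and 0.38 in P4, 0.30 and 0.44 in P5 and -0.10 and 0.03 in P6, while GFPhi gave 2.73 and GFPlo 0.38. The 3 arrays of virgin P4 and GFPhi lay between 2.35 and 2.73 and all other arrays at or under 0.51. In virgin glands P4 was above P5 by 2.37 ± 0.12 (SE, adjusted p = 2.74e-05), or 5.15-fold, and above P6 by 2.28 ± 0.12 (SE, adjusted p = 2.36e-05), or 4.84-fold. In P4 Abcg5 fell with pregnancy, by -1.96 ± 0.12 (SE, adjusted p = 0.000423), or 3.9-fold, and within scan 2 the difference was -2.09. These 3 calls stood in all 24 alternative fits. In P5 the pregnancy difference was 0.32 ± 0.12 (SE, adjusted p = 0.108) and in P6 -0.17 ± 0.12 (SE, adjusted p = 0.883), and the 3 differences were unequal (F = 92.7, adjusted p = 0.000755).

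Pregnant P4 and P5 kept slightly more Abcg5 than pregnant P6, by 0.48 ± 0.12 (SE, adjusted p = 0.039) and 0.40 ± 0.12 (SE, adjusted p = 0.0441), but these calls were lost in 15 of 24 and 18 of 24 alternative fits, the first without any 1 of the 10 wild-type arrays outside pregnant P5 and the second without any 1 of the 12 (adjusted p 0.0212 to 0.331 and 0.0249 to 0.251). Pregnant P4 minus P5 was 0.08 ± 0.12 (SE, adjusted p = 0.719). Abcg8, which shares the promoter stretch shown above, stayed between -0.17 and 0.14 on all arrays and was well above background on both arrays of each wild-type group. It was called in no comparison. The basal marker mean was 4.50 to 4.65 in virgin P4 and 3.52 to 5.32 in pregnant P4. Over the 14 arrays its correlation with Abcg5 was 0.761, as a description, and its part in Abcg5 was not tested. The adipocyte marker mean was 2.75 to 4.04 in pregnant P4 against 1.55 to 1.75 in virgin P4, and its part in the pregnancy difference was not tested.

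Abcg1, which moves cholesterol to high-density lipoprotein, fell with pregnancy in P5. Its log2 ratios were 0.20 and -0.55 in P4, 1.76 and 0.85 in P5 and 0.34 and -0.83 in P6 in virgin glands. They were -0.70 and 0.23 in P4, -1.94 and -1.36 in P5 and -0.83 and 0.08 in P6 in pregnant glands, and 1.57 and 1.74 in GFPhi and GFPlo. Both pregnant P5 arrays were below every other array, and virgin P5 overlapped the GFP arrays. The P5 difference was -2.96 ± 0.54 (SE, adjusted p = 0.00607), with -2.22 within scan 2, and it was lost only without virgin P5 replicate 1 (adjusted p = 0.0532; 1.3e-05 to 0.0532 over the fits). No comparison of populations was called for Abcg1, whose SD reached 0.83 in virgin P6. Abcg4, a sterol exporter related to Abcg1, was lower in pregnant P5 than in pregnant P6 (-0.68 ± 0.20 (SE, adjusted p = 0.032)), a call lost in 7 of 24 alternative fits, among them those without either virgin P4 array, either pregnant P6 array or pregnant P5 replicate 1 (adjusted p 0.00269 to 0.187). Abcg3 was called in none, with values from -0.73 to -0.05.

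**Figure D2:**
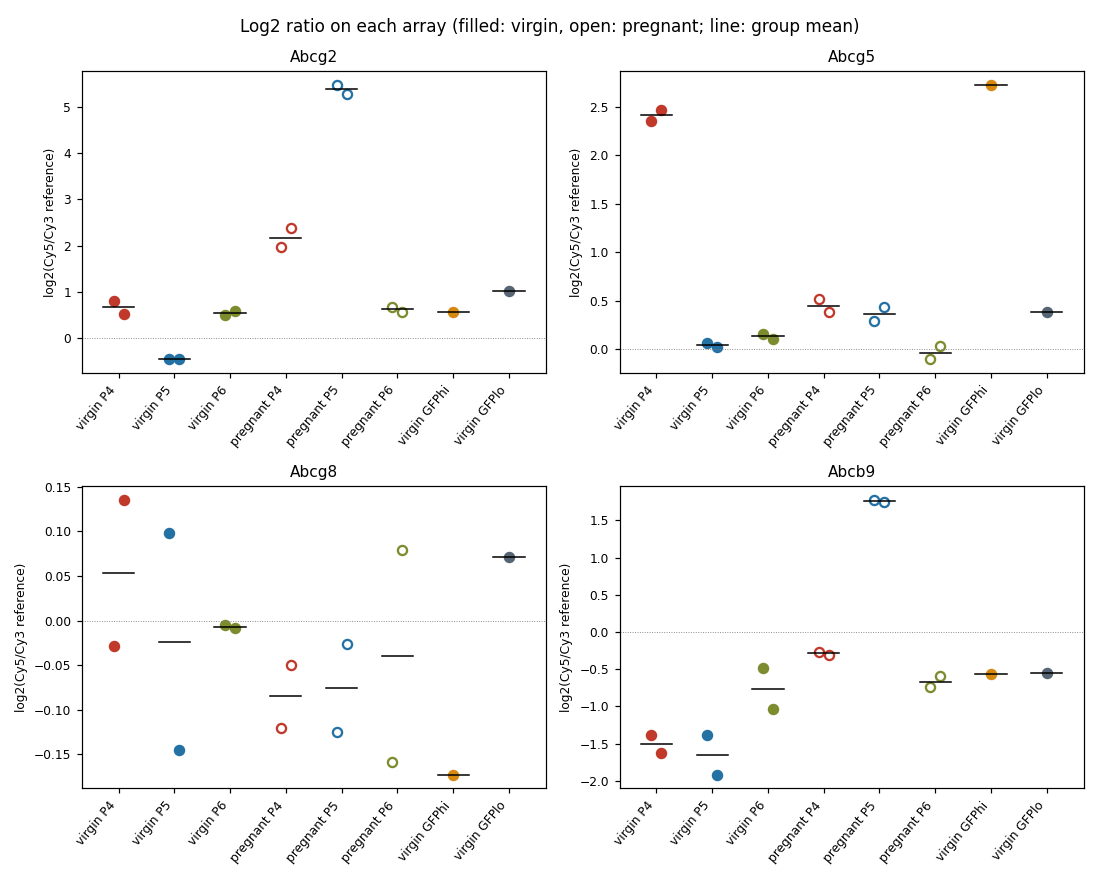
Log2 ratio (Cy5 over Cy3, vertical axis) of Abcg2, Abcg5, Abcg8 and Abcb9 on each of the 14 arrays, grouped by population and condition on the horizontal axis; each point is 1 array and each bar a group mean. Abcg2 reaches 5.48 and 5.27 and Abcb9 1.78 and 1.75 in pregnant P5, Abcg5 lies at 2.35 to 2.73 in virgin P4 and GFPhi only, and Abcg8 stays between -0.17 and 0.14.

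In subfamily B, the lysosomal peptide transporter Abcb9, also with a single probe, followed pregnancy in P5. Its log2 ratios were -1.39 and -1.62 in P4, -1.39 and -1.92 in P5 and -0.48 and -1.04 in P6 in virgin glands. Pregnant glands gave -0.26 and -0.31 in P4, 1.78 and 1.75 in P5 and -0.73 and -0.60 in P6, and GFPhi and GFPlo -0.56 and -0.55. Pregnant P5 lay above zero and all other arrays below it. The pregnancy difference was 3.41 ± 0.23 (SE, adjusted p = 4.53e-05) in P5, which is 10.7-fold, and 3.66 within scan 2. It was 1.22 ± 0.23 (SE, adjusted p = 0.0252) in P4 and 0.09 ± 0.23 (SE, adjusted p = 0.977) in P6, and the 3 were unequal (F = 55.9, adjusted p = 0.00208), a call lost with median centring. The P4 call was lost in 7 of 24 alternative fits, among them those without any 1 of the 4 P4 arrays (adjusted p 0.00121 to 0.238). Pregnant P5 minus P6 was 2.43 ± 0.23 (SE, adjusted p = 0.000104), and pregnant P4 minus P5 -2.05 ± 0.23 (SE, adjusted p = 0.000447), the latter lost with median centring. Virgin P5 minus P6 was -0.89 ± 0.23 (SE, adjusted p = 0.0277), lost in 6 of 24 fits, among them those without virgin P5 replicate 2 or virgin P6 replicate 1 (adjusted p 0.00118 to 0.799).

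Abcb1b, a P-glycoprotein drug pump, was below the reference everywhere and lowest in virgin P5. Virgin arrays gave -1.02 and -1.42 in P4, -2.64 and -2.92 in P5 and -1.56 and -2.20 in P6. Pregnant arrays gave -0.96 and -1.63 in P4, -2.07 and -2.36 in P5 and -2.13 and -1.81 in P6, with -1.30 in GFPhi and -1.54 in GFPlo. Virgin P4 and P5 did not overlap, and P4 was above P5 by 1.56 ± 0.30 (SE, adjusted p = 0.0105), or 2.95-fold. That call was lost with local backgrounds as given, with median centring and without virgin P4 replicate 1 or virgin P5 replicate 2 (adjusted p 0.00161 to 0.408). Its neighbour Abcb4, the phosphatidylcholine exporter of bile, was above virgin P5 in virgin P4 by 0.85 ± 0.17 (SE, adjusted p = 0.0149) and above pregnant P6 in pregnant P4 by 0.66 ± 0.17 (SE, adjusted p = 0.0437), calls lost in 6 of 24 and 13 of 24 fits, the first without virgin P4 replicate 1 or virgin P5 replicate 2 and the second without any 1 of 10 arrays (adjusted p 0.00132 to 0.964 and 0.00406 to 0.402). The third gene of this run on chromosome 5, Abcb1a, was called in none and was well above background on no P5 array.

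Abcb6, a porphyrin transporter, was higher in pregnant P5. The virgin arrays gave -0.40 and -0.27 in P4, -0.56 and -0.33 in P5 and -0.15 and -0.30 in P6. In pregnancy the values were -1.04 and -0.24 in P4, 0.62 and 1.09 in P5 and -0.43 and -0.05 in P6, and GFPhi and GFPlo had -0.79 and -0.64. Only the pregnant P5 arrays were above zero. The pregnancy difference in P5 was 1.30 ± 0.28 (SE, adjusted p = 0.0123), and 1.41 within scan 2. Pregnant P4 minus P5 was -1.50 ± 0.28 (SE, adjusted p = 0.00571) and pregnant P5 minus P6 1.09 ± 0.28 (SE, adjusted p = 0.0195). All 3 calls were lost with median centring, the first and last also without pregnant P5 replicate 2, the first without virgin P5 replicate 1 and the last without pregnant P6 replicate 1 (adjusted p 0.000455 to 0.227 for pregnancy). Of the other mitochondrial and bile members, Abcb8 was above pregnant P6 in pregnant P5 (1.14 ± 0.32 (SE, adjusted p = 0.0294)), and Abcb11, the bile salt export pump, rose with pregnancy in P5 by 0.70 ± 0.16 (SE, adjusted p = 0.0172) and was above pregnant P6 there by 0.70 ± 0.16 (SE, adjusted p = 0.0126). These calls were lost in 6 of 24, 6 of 24 and 4 of 24 fits, each of them with median centring and without pregnant P5 replicate 2 (adjusted p up to 0.199). Abcb10, which serves mitochondrial heme metabolism, was called in none.

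In subfamily A, 4 of the 5 genes that lie side by side on chromosome 11, Abca8b, Abca8a, Abca9 and Abca6, were higher in P6. For Abca9 the probe used, the brightest of its probes, gave log2 ratios of 0.26 and 0.16 in P4, 0.07 and -0.13 in P5 and 4.06 and 3.84 in P6 in virgin glands. In pregnant glands they were 0.00 and 0.15 in P4, -0.15 and -0.20 in P5 and 3.91 and 3.93 in P6, with 0.84 in GFPhi and 2.91 in GFPlo. The P6 arrays and GFPlo lay at 2.91 and above and all others at or under 0.84. Virgin P6 was above virgin P4 (P4 minus P6, -3.74 ± 0.14 (SE, adjusted p = 8.17e-06)) and virgin P5 (P5 minus P6, -3.98 ± 0.14 (SE, adjusted p = 2.02e-06)). Pregnant P6 was above pregnant P4 (-3.85 ± 0.14 (SE, adjusted p = 4.06e-06)) and pregnant P5 (-4.10 ± 0.14 (SE, adjusted p = 1.49e-06)). Abca9 was not well above background on either pregnant P5 array, where its mean was -0.17 against 3.92 in pregnant P6, and no fold is given for that comparison. Its 3 other probes that passed differed far less, by -0.95, -0.05 and -0.23 for pregnant P5 minus P6, and 1 had the opposite sign in pregnant P4 minus P6 (0.02). With a mean over probes the 4 differences shrank to between -1.33 and -1.22 and were still called. The virgin calls of Abca9 were lost with local backgrounds as given (adjusted p 2.77e-06 to 0.118 and 1.13e-06 to 0.06), and the pregnant calls in no fit.

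Abca8a was high in P6 and spread more between replicates. Virgin arrays gave 1.48 and 3.26 in P4, 3.35 and 2.12 in P5 and 4.73 and 5.22 in P6. In pregnant glands the values were 0.80 and 1.98 in P4, 0.24 and 2.05 in P5 and 5.42 and 5.51 in P6, and in GFPhi and GFPlo 3.50 and 5.24. P6 and GFPlo did not overlap with the other arrays, whose SD reached 1.28 in pregnant P5. Pregnant P6 was above P4 (-4.08 ± 0.76 (SE, adjusted p = 0.00855)) and P5 (-4.32 ± 0.76 (SE, adjusted p = 0.00333)), while the virgin comparisons were not called. Both pregnant calls were lost without scan 3, and that against P4 without pregnant P4 replicate 1 (adjusted p 0.00318 to 0.109).

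Abca6 was 2.69 to 3.14 in P6 of both conditions against 0.22 to 0.78 in P4 and P5, and all its 4 comparisons with P6 were called (differences -2.30, -2.37, -2.74 and -2.58). Abca8b was 1.35 to 2.06 in P6 against -0.28 to 0.06, and its 4 comparisons were called too (-1.78, -1.76, -1.71 and -1.78). The virgin calls of Abca6 were lost with the scanner's log ratio, the series table and local backgrounds as given, and those of Abca8b with the latter and median centring, while the pregnant calls of both stood in all fits. The other Abca8b probe was near the reference in P6 (0.02 and 0.21 in virgin and pregnant) and at 0.46 in pregnant P5. The 12 fibroblast markers, all higher in P6 than in P4 and P5 of both conditions, moved with these 4 genes. Over the 14 arrays the correlation with their mean was 0.987 for Abca9, 0.983 for Abca6, 0.944 for Abca8b and 0.884 for Abca8a, as a description of arrays that share groups and scans. The part of fibroblast RNA in these values was not tested.

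**Figure D3:**
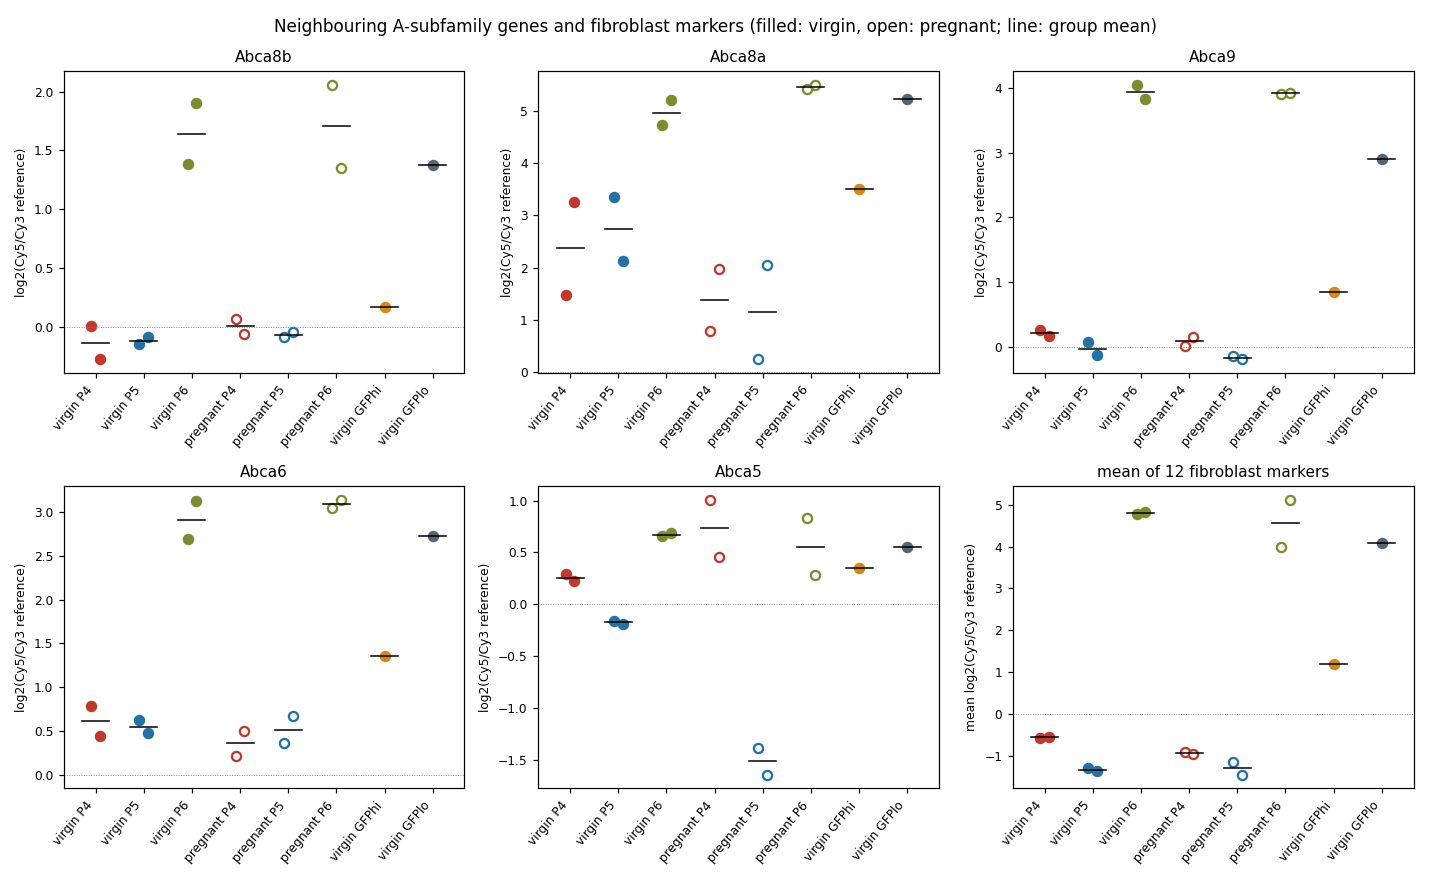
Log2 ratio (vertical axis) of the chromosome 11 neighbours Abca8b, Abca8a, Abca9, Abca6 and Abca5, and the mean log2 ratio of the 12 fibroblast markers, on each of the 14 arrays by group (horizontal axis); each point is 1 array and each bar a group mean. The first 4 genes and the markers are high in P6 and GFPlo, with Abca9 at 2.91 and above, and Abca5 is instead low in pregnant P5 at -1.39 and -1.64.

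Abca5, the last gene of that run, had another pattern. It was lower in pregnant P5 (-1.39 and -1.64) than in pregnant P4 (2.25 ± 0.23 (SE, adjusted p = 0.000295) for P4 minus P5) and pregnant P6 (-2.07 ± 0.23 (SE, adjusted p = 0.000263) for P5 minus P6), and fell there with pregnancy by -1.34 ± 0.23 (SE, adjusted p = 0.00421). Its probes disagreed: another one averaged 0.81 in pregnant P5 and at most 0.15 elsewhere, and a mean over its probes ended these calls, as did median centring (adjusted p 0.00014 to 0.496 for pregnancy). Virgin P5 minus P6 was -0.84 ± 0.23 (SE, adjusted p = 0.0376), lost in 13 of 24 fits, among them those without any 1 of the 6 virgin or the 2 pregnant P5 arrays (adjusted p 0.00124 to 0.947).

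Abca1, which loads cholesterol and phospholipid onto apolipoprotein A-I, was highest in both GFP arrays and lowest in pregnant P5. Virgin arrays gave 1.69 and 1.60 in P4, 0.38 and 0.26 in P5 and 2.06 and 2.04 in P6. Pregnant arrays gave -0.39 and 0.40 in P4, -1.68 and -0.33 in P5 and 1.68 and 1.65 in P6, and GFPhi and GFPlo 2.85 and 3.19. Pregnant P4 and P5 overlapped each other and lay under pregnant P6 without overlap. Pregnant P5 minus P6 was -2.67 ± 0.40 (SE, adjusted p = 0.00134) in a call that stood in all fits, and virgin P5 minus P6 -1.72 ± 0.40 (SE, adjusted p = 0.0179). Pregnant P4 minus P6 was -1.66 ± 0.40 (SE, adjusted p = 0.0274), and the pregnancy difference in P5 -1.33 ± 0.40 (SE, adjusted p = 0.0454). The last 3 calls were lost in 6 of 24, 7 of 24 and 14 of 24 fits, the virgin one without any 1 of the virgin P5 and P6 arrays, that of pregnant P4 without either virgin P4, either pregnant P6 or the first pregnant P4 array, and the last without any 1 of the 6 virgin arrays, the first pregnant P5 or either pregnant P6 array (adjusted p up to 0.369). The slide or the scan as a block also ended the call of pregnancy in P5. Within scan 2 the P5 pregnancy difference of Abca1 was -0.60, against -2.06 between scans.

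Abca3, which packs surfactant phospholipid in the lung, was lower in pregnant P4 than in pregnant P5 (-1.95 ± 0.52 (SE, adjusted p = 0.0284)), a call lost without scan 3, without pregnant P4 replicate 1 and without pregnant P5 replicate 2 (adjusted p 0.000119 to 0.172). Abca14 was slightly higher in pregnant P5, by 0.40 ± 0.11 (SE, adjusted p = 0.0342) over virgin P5 and by -0.45 ± 0.11 (SE, adjusted p = 0.0207) for pregnant P4 minus P5. Its calls were lost in 10 of 24 and 7 of 24 fits, among them those without either pregnant P5 array, and all its values lay between -0.12 and 0.40. Abca2, Abca7, Abca13, Abca16 and Abca17 were called in none.

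In subfamily C, Abcc8 (SUR1, the sulfonylurea receptor of ATP-sensitive potassium channels) had its highest level in virgin P5. Its virgin log2 ratios were 1.92 and 0.59 in P4, 4.36 and 3.98 in P5 and 1.10 and 0.78 in P6. Pregnant glands gave -0.47 and -0.70 in P4, -0.36 and -0.42 in P5 and -0.97 and -0.18 in P6, and GFPhi and GFPlo 2.10 and 2.63. Virgin P5 lay above all arrays, and all 6 pregnant arrays lay below all 8 virgin ones. Virgin P4 minus P5 was -2.92 ± 0.42 (SE, adjusted p = 0.00253), and virgin P5 minus P6 3.23 ± 0.42 (SE, adjusted p = 0.000841). With pregnancy Abcc8 fell in P5 by -4.56 ± 0.42 (SE, adjusted p = 0.000211), or 23.6-fold, with -4.40 within scan 2. These 3 calls stood in all 24 alternative fits. The difference in P4 was -1.84 ± 0.42 (SE, adjusted p = 0.0515) and in P6 -1.51 ± 0.42 (SE, adjusted p = 0.306), with -1.28 and -0.95 within scan 2, and the 3 were unequal (F = 16.2, adjusted p = 0.0255). That F test call was lost in 9 of 24 fits, among them those without either virgin P5 or either pregnant P5 array (adjusted p 0.00445 to 0.17). The other Abcc8 probe was well above background on 3 of 14 arrays. It differed by only -0.08 in virgin P4 minus P5, 0.09 in virgin P5 minus P6 and -0.09 for pregnancy in P5.

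The pore gene Kcnj11 (Kir6.2), the next gene to Abcc8 on chromosome 7, was also highest in virgin P5. It read 0.25 and -0.02 in P4, 0.89 and 1.06 in P5 and 0.03 and 0.05 in P6 in virgin glands and from -0.21 to 0.18 in pregnant ones. Virgin P4 minus P5 was -0.87 (adjusted p = 0.0062), virgin P5 minus P6 0.94 (adjusted p = 0.00249) and the pregnancy difference in P5 -1.09 (adjusted p = 0.00143). Abcc9 (SUR2), the other sulfonylurea receptor, and its neighbour on chromosome 6, the pore gene Kcnj8 (Kir6.1), were instead lowest in P5. Abcc9 was at 0.64 in both virgin P5 arrays and 3.88 and 3.40 in virgin P6, and at 0.50 and 0.47 in pregnant P5 and 2.37 and 4.00 in pregnant P6. P5 minus P6 was -3.00 ± 0.49 (SE, adjusted p = 0.00332) in virgin and -2.70 ± 0.49 (SE, adjusted p = 0.00402) in pregnant glands, and pregnant P4 minus P5 1.96 ± 0.49 (SE, adjusted p = 0.0225). Virgin P4 minus P5 was 1.16 ± 0.49 (SE, adjusted p = 0.219), which did not pass. The virgin P5 minus P6 call was lost with local backgrounds as given, and that against pregnant P4 with these and without pregnant P4 replicate 2 or either pregnant P5 array (adjusted p 0.00186 to 0.117). Kcnj8 had P5 minus P6 differences of -3.37 (adjusted p = 0.00245) in virgin and -3.53 (adjusted p = 0.00137) in pregnant glands. Kcnj8 is also 1 of the 8 pericyte markers, whose mean was -0.07 to 0.26 in P5 of both conditions and 1.56 to 3.17 in P6, and the part of such cells was not tested.

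**Figure D4:**
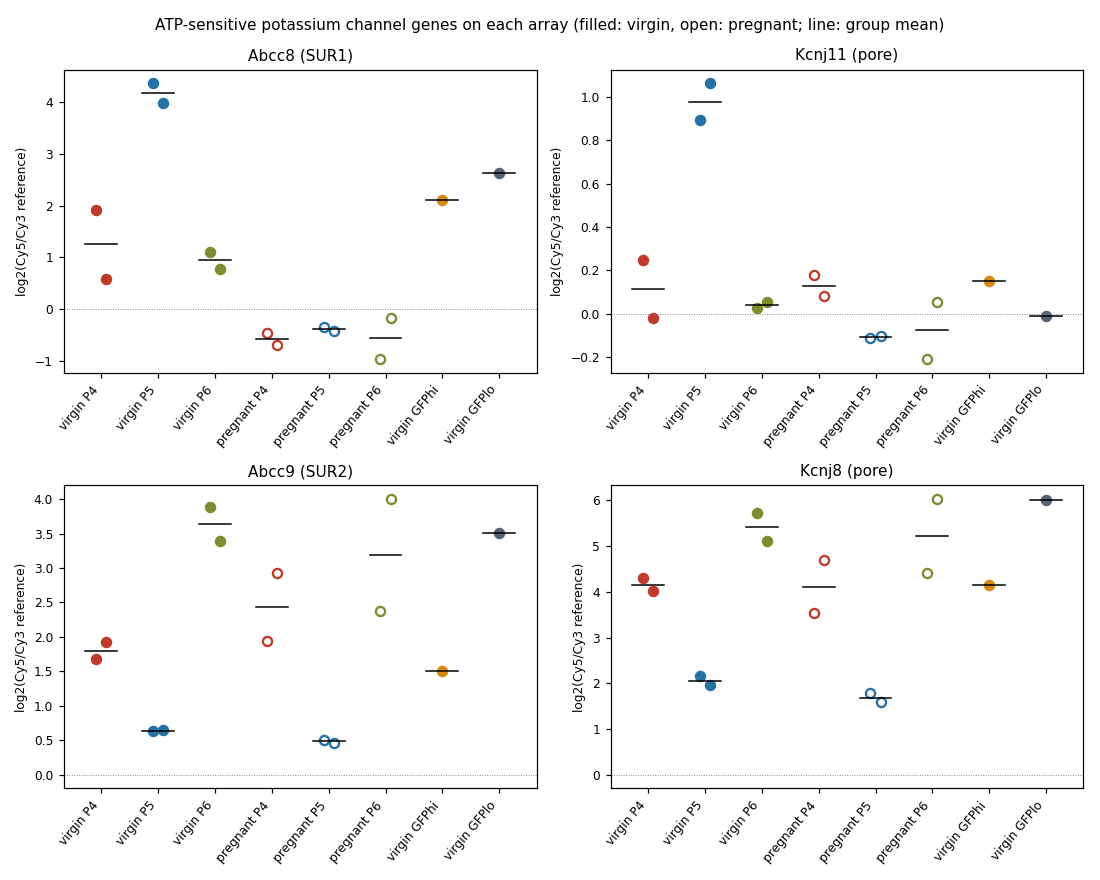
Log2 ratio (vertical axis) of the sulfonylurea receptor genes Abcc8 and Abcc9 and of the channel pore genes Kcnj11 and Kcnj8 on each of the 14 arrays by group (horizontal axis); each point is 1 array and each bar a group mean. Abcc8 and Kcnj11 are highest in virgin P5 (4.36 and 3.98, 0.89 and 1.06), where Abcc9 and Kcnj8 are lower than in virgin P6.

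Abcc3, an exporter of glucuronides and bile acids, was also high in virgin P5. Virgin arrays gave -0.56 and -1.13 in P4, 1.80 and 1.43 in P5 and -1.22 and -1.83 in P6. In pregnant glands it read -2.43 and -1.71 in P4, -1.46 and -1.45 in P5 and -2.38 and -1.42 in P6, and 0.03 and -0.21 in GFPhi and GFPlo. Virgin P5 lay above all arrays, and pregnant P6 overlapped both other pregnant groups. Virgin P4 minus P5 was -2.46 ± 0.38 (SE, adjusted p = 0.00386), virgin P5 minus P6 3.14 ± 0.38 (SE, adjusted p = 0.000609) and the pregnancy difference in P5 -3.07 ± 0.38 (SE, adjusted p = 0.000942), or -2.88 within scan 2, all standing in the 24 fits. The F test of the pregnancy differences (adjusted p = 0.0393) was lost in 11 of 24 fits, among them those without any 1 virgin array (adjusted p 0.00211 to 0.322). The other Abcc3 probe, well above background on all 14 arrays, had group means between -0.13 and 0.04 only. The luminal marker mean was also highest in virgin P5, at 4.24 to 4.30 against 1.33 to 1.96 in pregnant P5, and its part in Abcc3 and Abcc8 was not tested.

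By the probe used, Abcc4, an exporter of cyclic nucleotides and prostaglandins, was high in P6 and GFPlo and lowest in pregnant P5. Virgin arrays gave -0.65 and -0.60 in P4, -0.92 and -1.48 in P5 and 0.86 and 0.48 in P6. Pregnant arrays gave -1.10 and -1.12 in P4, -2.81 and -2.78 in P5 and 0.18 and 0.49 in P6, and GFPhi and GFPlo -0.36 and 0.98. P6 and GFPlo lay above zero and all other arrays below it. The fibroblast marker mean was also high in P6 and GFPlo, and over the 14 arrays its correlation was 0.851 with Abcc4, 0.837 with Abcc5 and 0.840 with Abcc9, as a description; its part in these genes was not tested. P5 minus P6 was -1.87 ± 0.21 (SE, adjusted p = 0.00039) in virgin and -3.13 ± 0.21 (SE, adjusted p = 1.82e-05) in pregnant glands, and P4 minus P6 -1.29 ± 0.21 (SE, adjusted p = 0.00475) and -1.44 ± 0.21 (SE, adjusted p = 0.0023). Pregnant P4 minus P5 was 1.69 ± 0.21 (SE, adjusted p = 0.000788), and the pregnancy difference in P5 -1.60 ± 0.21 (SE, adjusted p = 0.00123). Only pregnant P5 minus P6 stood in all fits. The others were lost with median centring or local backgrounds as given, and the last 2 with a mean over probes. The other Abcc4 probe, well above background on all 14 arrays, was higher in pregnant P5 (1.66) than in virgin P5 (0.22). That probe also had the opposite sign for pregnant P5 minus P6 (1.16) and pregnant P4 minus P5 (-1.34). In virgin P4 minus P6, virgin P5 minus P6 and pregnant P4 minus P6 it had the same sign at smaller size.

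Abcc5, which also exports cyclic nucleotides, ran the same way, from -1.54 and -1.51 in pregnant P5 to 1.12 and 1.11 in pregnant P6. P5 minus P6 was -1.48 ± 0.17 (SE, adjusted p = 0.000406) in virgin and -2.64 ± 0.17 (SE, adjusted p = 1.41e-05) in pregnant glands, and the pregnancy difference in P5 was -0.89 ± 0.17 (SE, adjusted p = 0.00693). Pregnant P4 lay between, with 1.45 for P4 minus P5 and -1.19 for P4 minus P6 (adjusted p = 0.000563 and 0.00194), and virgin P4 was above virgin P5 by 0.86 (adjusted p = 0.0117). Abcc1, which exports glutathione conjugates, was lowest in P5 of both conditions, at -1.83 and -1.59 in virgin and -2.31 and -2.27 in pregnant P5. Its P4 minus P5 differences were 1.13 and 1.90 (adjusted p = 0.0166 and 0.000812), and its P5 minus P6 differences -1.06 and -1.55 (adjusted p = 0.0158 and 0.00156). The virgin calls of Abcc1 were lost in 7 of 24 and 6 of 24 fits, among them those without virgin P5 replicate 1 (adjusted p 0.00278 to 0.947 and 0.00271 to 0.844), and the pregnant ones with median centring only. The Abcc5 calls of pregnant P5 against P4 and P6 stood in all fits. Those of virgin P5 minus P6, pregnant P4 minus P6, pregnancy in P5 and virgin P4 minus P5 were lost in 1 of 24, 2 of 24, 4 of 24 and 7 of 24 fits, the last 2 without virgin P5 replicate 1 (adjusted p 0.00179 to 0.251 and 0.00326 to 0.964). Abcc2 and Abcc6 were called in none.

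In subfamily D, Abcd3, which brings branched fatty acids and bile acid precursors into peroxisomes, was highest in pregnant P5. Virgin arrays gave 0.99 and 0.98 in P4, 1.21 and 0.84 in P5 and 0.85 and 0.53 in P6. In pregnancy Abcd3 read 1.32 and 1.29 in P4, 2.05 and 2.20 in P5 and 0.28 and 0.51 in P6, and GFPhi and GFPlo had 1.53 and 1.08. Pregnant P5 lay above all arrays and pregnant P6 below all. Pregnancy raised P5 by 1.10 ± 0.17 (SE, adjusted p = 0.0028), with 1.36 within scan 2. Pregnant P5 minus P6 was 1.73 ± 0.17 (SE, adjusted p = 0.000145), pregnant P4 minus P6 0.91 ± 0.17 (SE, adjusted p = 0.00905) and pregnant P4 minus P5 -0.82 ± 0.17 (SE, adjusted p = 0.00996). All 4 calls were lost with median centring, and those of pregnant P4 with a mean over probes and without scan 3, against P5 without pregnant P5 replicate 2 and against P6 without pregnant P4 replicate 1 or pregnant P6 replicate 1 (adjusted p up to 0.903).

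Abcd4, a transporter for lysosomal cobalamin, moved likewise in P5. Virgin arrays gave -0.65 and -1.02 in P4, -1.09 and -1.10 in P5 and -0.64 and -0.66 in P6. Pregnant ones gave -1.04 and -0.85 in P4, -0.12 and 0.09 in P5 and -0.76 and -0.43 in P6, and GFPhi and GFPlo -0.89 and -0.45. Pregnant P5 lay above all other arrays. The pregnancy difference in P5 was 1.08 ± 0.17 (SE, adjusted p = 0.00334), with 1.19 within scan 2, and pregnant P4 minus P5 was -0.93 ± 0.17 (SE, adjusted p = 0.00593), both lost with median centring only (adjusted p 0.000511 to 0.606 and 0.000885 to 0.862). Pregnant P5 minus P6 was 0.58 ± 0.17 (SE, adjusted p = 0.0393), lost in 13 of 24 fits, among them those without either pregnant P5 array (adjusted p 0.00714 to 0.799). Abcd2, which brings very long chain fatty acids into peroxisomes, was called in none.

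Abce1, which splits ribosomes after termination, was the only member of subfamily E. Virgin arrays gave -0.93 and -0.73 in P4, -1.34 and -0.83 in P5 and -1.37 and -0.98 in P6. Pregnant arrays gave -0.19 and -0.75 in P4, 0.51 and -0.20 in P5 and -0.59 and -1.22 in P6, with -1.42 and -1.38 in GFPhi and GFPlo. Pregnant P5 overlapped pregnant P4 but not virgin P5. The pregnancy difference in P5 was 1.24 ± 0.33 (SE, adjusted p = 0.031), from 1.85 between scans to 0.62 within scan 2. In pregnant glands P5 minus P6 was 1.06 ± 0.33 (SE, adjusted p = 0.0465). These calls were lost in 11 of 24 and 14 of 24 fits, among them those with the scanner's log ratio, without scan 3 and without virgin P4 replicate 1 (adjusted p 0.000201 to 0.77 and 0.000254 to 0.682).

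In subfamily F, Abcf1, a partner of initiation factor eIF2, was higher in pregnant P5 than in pregnant P4 and P6. Virgin arrays gave -0.26 and -0.10 in P4, -0.38 and 0.01 in P5 and -1.02 and -0.60 in P6. Pregnant glands gave -0.48 and -0.42 in P4, 0.21 and 0.37 in P5 and -0.88 and -0.43 in P6, and GFPhi and GFPlo -0.43 and -0.50. Pregnant P5 lay above all arrays. Pregnant P5 minus P6 was 0.95 ± 0.21 (SE, adjusted p = 0.0114) and P4 minus P5 -0.74 ± 0.21 (SE, adjusted p = 0.0386), lost in 4 of 24 and 12 of 24 fits, both with median centring, without scan 3 and without pregnant P5 replicate 2. Abcf3, related to the translation regulator GCN20 of yeast, gave 0.39 and 0.03 in P4, 0.91 and 0.46 in P5 and 0.52 and -0.07 in P6 in virgin glands. In pregnant glands it gave -0.71 and -0.18 in P4, 0.44 and 0.92 in P5 and -0.26 and 0.09 in P6, and 0.30 and 0.19 in GFPhi and GFPlo. Pregnant P4 was below pregnant P5 without overlap, by -1.13 ± 0.30 (SE, adjusted p = 0.028), lost with median centring, without scan 3 and without pregnant P4 replicate 1 or pregnant P5 replicate 2 (adjusted p 0.000216 to 0.435). Abcf2 was called in none.

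The pregnancy differences of P4, P5 and P6 were unequal by the F test for 9 members, 20.5% against 7.95% of all genes: Abca5, Abcb9, Abcc3, Abcc5, Abcc8, Abcd3, Abcd4, Abcg2 and Abcg5. In 8 of them the P5 difference was the one of largest size, and in Abcg5 that of P4. The count was 15 with the replicate block. It was lower with median centring and with local backgrounds as given, fits that keep all arrays. It was also lower without either pregnant P5 array and without scan 3, fits that leave groups without replicates. The share of all genes called in these fits is not given here. Whether the members moved more than all genes therefore cannot be told. Only the calls of Abcg2 and Abcg5 stood in all 24 alternative fits.

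**Figure D5:**
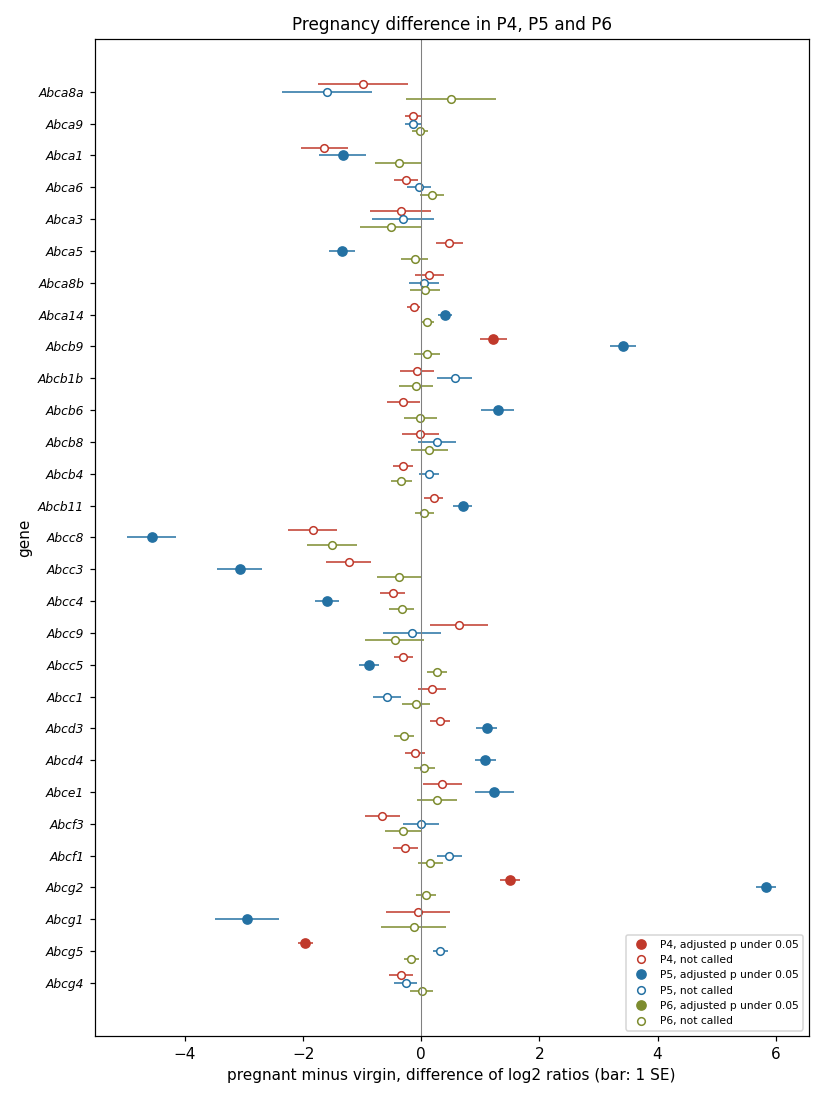
Pregnant minus virgin difference in log2 ratio (horizontal axis) with its standard error from limma for the 29 members called in at least 1 comparison (vertical axis), in P4, P5 and P6; filled points have an adjusted p under 0.05. Filled points reach from -4.56 for Abcc8 to 5.84 for Abcg2, both in P5, no P6 point is filled, and the only filled point below zero in P4 is that of Abcg5.

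The series' design sets cells enriched for stem cells (P4 and GFPhi) against depleted cells (P5, P6 and GFPlo). In virgin glands 1 member, Abcg5, was higher in enriched cells and 0 lower (2.27% and 0% against 1.52% and 0.106% of all genes; 4 members were under an unadjusted p of 0.05). The difference of Abcg5 was 2.37 ± 0.14 (SE, adjusted p = 2.79e-06) over 3 enriched and 5 depleted arrays, and it stood in all 26 alternative fits. In pregnant glands limma called 0 members, against 2.25% higher and 0.237% lower of all genes, with 7 members under an unadjusted p of 0.05, and Abcg5 differed by 0.28 ± 0.17 (SE, adjusted p = 0.6). The virgin classes hold the GFP arrays of the transgenic line, and the pregnant classes hold wild-type arrays only. A contrast of these classes between conditions therefore also changes mouse line and sorting. The change of the enriched minus depleted difference with pregnancy was called for Abcg5 alone, at -2.09 ± 0.22 (SE, adjusted p = 0.00478), against 0.0677% higher and 0.0296% lower of all genes. That call was lost with the scanner's log ratio, the series table, slide as a block and without scan 3 (adjusted p 0.00136 to 0.251). The blocks and median centring gave 2 or 3 members in the virgin comparison, as did leaving out GFPlo with 2. Abcg2 was called in none of these, and pregnant P5 and P6, both on the depleted side, differed in it by 4.75.

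GFPhi minus GFPlo rested on 1 array each and has no test. Past a difference of 1 (2-fold), Abcg5 was higher in GFPhi at 2.35, and 6 members were lower (2.27% and 13.6% against 3.35% and 2.99% of all genes). The lower ones were Abca9 (-2.06), Abcc9 (-1.99), Abca8a (-1.74), Abca6 (-1.37), Abcc4 (-1.33) and Abca8b (-1.21). All 12 fibroblast markers were also lower in GFPhi past 2-fold, and their part was not tested. The scanner's log ratio gave 3 higher and 7 lower members.

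Genes that work with the members were counted from lists, with calls over all genes tested. Of 16 genes of sterol efflux and the LXR pathway, 4 were higher and 3 lower in pregnant than virgin P5, with Npc2 at 2.40, Mylip at -1.74 and Scarb1 at 1.73 (adjusted p = 0.00197, 0.00939 and 0.0274). Nr1h3, the receptor LXR-alpha, was higher in P6, with P4 minus P6 at -1.72 in virgin and -2.11 in pregnant glands (adjusted p = 0.00195 and 0.000553). Of 15 measured genes of xenobiotic response and conjugation, 3 were higher and 3 lower with pregnancy in P5, led by Gclc at -2.51, Hmox1 at 1.93 and Ahr at -1.81. Of 11 peroxisome genes, partners of subfamily D, 2 were higher and 3 lower there, led by Phyh at -6.06 and Ehhadh at 1.95. Of 11 mitochondrial iron-sulfur and heme genes 4 were higher and none lower, led by Cpox at 1.52, and of 9 translation genes Pelo alone was higher, at 1.41. These calls had an adjusted p of at most 0.0274, beside the 10.7% and 10.7% of all genes called in P5. Tap1, Tap2 and Cftr, ABC proteins with other symbols, were called in no comparison.

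Other probes of called members were read in 93 cases from 17 genes, and 11 of them, in Abca5, Abca8b, Abca9, Abcc3 and Abcc4, differed in sign from the probe used. The same sign did not always mean a similar size. Other probes of Abcc8, Abcc3 and Abca9 with the same sign differed far less, while those of Abcg2 and Abcc1 were near in size. Of 101 calls of members in tested comparisons, 28 stood in every alternative fit, 20 were lost in 1 and 13 in more than 10.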

How the data were processed

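Total RNA of sorted mouse mammary cells was labelled with Cy5 and hybridised with a Cy3-labelled reference RNA on 14 Agilent 2-colour arrays, per the labels' protocols. Per the submitters' processing notes the software was Agilent Feature Extraction 9.5.3.1. The deposited scanner files hold linear values, the mean and the local background intensity of each spot in both channels. A further column is log10 of Cy5 over Cy3 as the scanner software computed it, per the file headers. The authors' deposited value table is log2, correlated at 0.990 to 1.000 per array with that column turned to log2, has array medians from -0.02 to 0.10 and was an alternative only.

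Here R 4.3.3 and limma 3.58.1 were used. In each channel 7 to 381 spots of an array had a non-uniform local background, which was replaced by the array's median, a step chosen with the data seen. Then followed normexp with offset 50 and loess within arrays, with controls at weight 0. Outlier spots were set to missing, and the brightest of a gene's probes was kept. The offset compresses folds of dim probes. Fits used lmFit and eBayes with Benjamini-Hochberg adjustment over all genes tested: 1 mean per group over 12 arrays (6 residual degrees of freedom) for populations and pregnancy, and enriched or depleted class by condition over 14 arrays (10 degrees of freedom). The script was tested on simulated data.

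Replicate numbers pair arrays within a condition, where they share a scan: same-numbered deviations from group means correlated at 0.30 to 0.69 within conditions and at -0.21 to 0.15 across them. The fit with the replicate number as a block is given where it moved a count.

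Of each subfamily, members called at least once are named, with every array's value for up to 3 with the largest range of group means. Members and gene lists were chosen with earlier results of these data known. Probe coordinates are those of the files (mm7), and all 49 symbols matched RefSeq. Promoter windows come from RefSeq GRCm38.p6. Some members are counted but not reported by name here. No column of values was left unused for want of a sample.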

Additional observations from a re-analysis of the deposited data

Results flagged for a closer look

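The pregnancy differences of P4, P5 and P6 were unequal by limma's F test in 9 members, as given above, and the test of that difference itself is what singles them out. The adjusted p was 0.000172 for Abcg2 and 0.000755 for Abcg5, and these 2 calls stood in all 24 alternative fits. It was 0.00208 for Abcb9, lost with median centring. It was 0.0237 for Abcd3, 0.0241 for Abca5, 0.0255 for Abcc8, 0.0364 for Abcd4, 0.0393 for Abcc3 and 0.0468 for Abcc5, each lost in 9 to 15 of the fits. Abcg5 also differed in how enriched and depleted cells compared between virgin and pregnant glands (limma, adjusted p = 0.00478), where only the virgin side held GFP arrays. Every group of wild-type arrays held 2 arrays, too few for a test of single arrays that stand apart.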

How the results depend on the processing

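No called difference of a member changed sign in any alternative, and 28 of the 101 calls stood in every fit tried. The counts of called members moved more, and they are given without the counts of all genes in the same fits. With median centring they fell to 7 of virgin P5 minus P6, 6 of pregnant P4 minus P5, 4 of pregnant P4 minus P6, 11 of pregnant P5 minus P6, 1 and 6 of pregnancy in P4 and P5 and 5 of the F test, and rose to 2 of enriched minus depleted in virgin glands. Relative to the values reported, median centring moved the median difference of all genes by 0.13 in pregnant P4 minus P5, 0.16 in pregnant P4 minus P6, 0.18 for pregnancy in P4, 0.16 for enriched minus depleted in pregnant glands and 0.32 for its difference between conditions. The scanner's log ratio and the series table moved it by -0.11 in pregnant P4 minus P5 and 0.12 in pregnant P5 minus P6. Local backgrounds as given left 1 call in virgin P4 minus P6, 6 in virgin P5 minus P6, 8 for pregnancy in P5 and 4 in the F test. The call of Abcg5 in the difference of enriched and depleted cells between conditions fell to 0 with the scanner's log ratio, the series table, the slide as a block and without scan 3.

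With the replicate block in each condition, counts rose to 17, 15 and 25 in virgin P4 minus P5, P4 minus P6 and P5 minus P6, 26 in pregnant P4 minus P5, 8 and 1 for pregnancy in P4 and P6, 15 in the F test and 2 for enriched minus depleted in virgin glands. No call of a member was lost with this block. With the scan as a block the same counts were 17, 15, 25, 26, 15 in the F test and 3, and with the slide as a block they were 16, 14 and 22 in the virgin comparisons and 2 for enriched minus depleted. Without scan 3, which leaves 1 array in each pregnant group, assumed to vary like the other groups, they were 13 in virgin P4 minus P5, 7 in pregnant P4 minus P6 and 4 in the F test. Leaving out 1 array at a time, or scan 3, gave 4 to 13 calls in virgin P4 minus P5, 5 to 7 in P4 minus P6 and 9 to 14 in P5 minus P6. It gave 9 to 15 in pregnant P4 minus P5, 6 to 10 in P4 minus P6 and 14 to 20 in P5 minus P6. It gave 2 to 4 for pregnancy in P4, 8 to 15 in P5 and 0 in P6, 3 to 9 in the F test, 1 to 2 for enriched minus depleted in virgin glands (2 without GFPlo) and 0 to 1 for its difference between conditions. The causes were not tested.

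With 2 arrays a group the fits rest on 6 residual degrees of freedom. Members not well above background have only bounds, and precision is limited by the number of arrays.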

Other observations

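Tap2, a peptide transporter of antigen presentation that is an ABC protein but no member by name, was called in no comparison and is singled out here after its values were seen. Its pregnant log2 ratios were 0.82, 2.01 and 1.19 in replicate 1 of P4, P5 and P6, which were read in scan 3, against -0.67, 0.10 and -0.86 in replicate 2. Its virgin replicates were at -0.95 and -0.85 in P4, 0.28 and 0.99 in P5 and -1.57 and -0.53 in P6. What sets pregnant replicate 1 apart in Tap2 was not tested, and animal, sort, slide and scan cannot be told apart.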
